A study of Mus musculus with 15 samples.

Results

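The question here was whether hydrogen peroxide acted on the transcriptome of mouse mammary cancer cells in the same way with and without the chloride intracellular channel gene Clic4. It was asked of all 15 sequenced samples through 1 contrast, the genotype by peroxide interaction, defined as the log2 response to H2O2 in knockout cells minus the log2 response to H2O2 in wild-type cells. A negative interaction means that H2O2 moved a gene further down, or less far up, in knockout than in wild-type cells. No gene was chosen for testing by its response: 13085 of the 55341 genes in the count table had enough counts to be tested, and all of them were tested. Which genes are named below depended in part on their values.

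The cells were 6DT1, a mammary cancer line of mouse FVB/N1 background. The 4 groups were untreated wild-type cells (replicates 9 to 12), wild-type cells given 1 µM H2O2 for 24 h (replicates 13 to 16), untreated Clic4 knockout cells (replicates 1 to 4) and Clic4 knockout cells given the same dose for the same time (replicates 5, 7 and 8). Replicate number 6 is not among the labels used here. The labels do not state how many knockout clones were used or whether replicates came from separate cultures, so p-values measure only the spread between these samples, which may be technical. Replicate 9 is titled wild type while its genotype field says knockout. It held 327 counts per M (CPM, scaled for library composition) of Clic4, against 313 to 324 CPM in the 7 other libraries titled wild type and at most 75.9 CPM in knockout libraries, and was kept as untreated wild type.

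CLIC4 is a small protein that moves between the cytosol, membranes, mitochondria and nucleus, and it has been linked to redox signalling, TGF-beta signalling and the tumour stroma. Hydrogen peroxide is a diffusible oxidant: peroxiredoxins, catalase and glutathione peroxidases remove it, and the transcription factor NRF2 raises the genes of this defence when its inhibitor KEAP1 is oxidised. Other responses known to follow oxidants are the p53 pathway, the integrated stress response through ATF4, the unfolded protein response of the endoplasmic reticulum (ER) and changes in mitochondrial transcripts. The gene lists below cover these pathways and others, such as cholesterol biosynthesis, glycolysis, DNA replication and ribosomal proteins. They were chosen with earlier results of these data known.

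The knockout was checked first on Clic4 itself (chr4:135213969-135272814, minus strand, mm10). Clic4 stood at 327, 324, 318 and 316 CPM in untreated and at 315, 313, 317 and 315 CPM in peroxide-treated wild-type libraries, and at 75.1, 74.0, 72.0 and 64.2 CPM in untreated and 75.9, 68.4 and 71.1 CPM in peroxide-treated knockout libraries. The genotypes did not overlap, and the treated and untreated libraries of each genotype did. The interaction of Clic4 was 0.04 on the log2 scale (approximate standard error, SE, 0.0623, 95% interval −0.09 to 0.17, adjusted p 0.972). Here and below, adjusted p is from edgeR's quasi-likelihood test with Benjamini-Hochberg adjustment over all 13085 genes. Of the related channel genes, Clic1 had an interaction of 0.10 (interval −0.01 to 0.20, adjusted p 0.823), and Clic5, at 1.90 CPM or less in every library, one of −0.02 (interval −1.44 to 1.40).

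Libraries held 12.3 to 16.0 M counts. Of 20 mammary epithelial markers, the simple keratin Krt8 averaged 631 to 662 CPM in the 4 groups and the milk protein gene Csn3 52.9 to 102 CPM. The junction genes Epcam and Cdh1 had 4 and 11 counts in all 15 libraries together, and Cldn7, Pgr and the milk protein genes Csn2 and Wap had 0. The 10 fibroblast markers summed to 11.3 to 23.2 CPM, mostly from Pdgfra, with Lum and Postn at 0. The 10 endothelial markers summed to 88.7 to 206 CPM, mostly from Flt1 (67.0 to 191 CPM by group) and, in wild-type groups, Vwf (22.2 and 23.7 CPM), with Cldn5 and Emcn at 0. The 7 adipocyte markers summed to at most 0.139 CPM, with Plin1, Lep and Cfd at 0. Replicate 9 of untreated wild type stood apart: 23 leukocyte and erythroid markers without Cd68, a lysosomal protein gene that these cells also express, summed to 164 CPM there against 5.48 to 25.3 CPM in the 14 other libraries. S100a9 was at 50.6 CPM in that library and at 0 in the others, and Ptprc at 4.52 CPM against at most 0.0742 CPM. Counts over all genes and the values of several genes and lists are therefore also given without it. In bulk RNA, fewer cells of a type and less RNA per cell cannot be told apart.

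No gene had an interaction with an adjusted p under 0.05 in edgeR's quasi-likelihood test (percent called 0 of 13085 genes). The smallest adjusted p was 0.148, shared by Ptms, Mt1 and the low-abundance transcript Gm43940, followed by Rpl5 at 0.156. At an unadjusted p under 0.05 there were 808 genes (6.18% of those tested), 444 with a negative interaction (3.39%) and 364 with a positive one (2.78%). The median interaction over all tested genes was −0.00 on the log2 scale, with 6653 negative and 6432 positive. Without untreated wild-type replicate 9 there were again 0 genes at an adjusted p under 0.05 (smallest 0.134) and 675 at an unadjusted p under 0.05.

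The count of 0 depended on the method. DESeq2 gave 15 genes at an adjusted p under 0.05, edgeR without a filter on low counts 5, and edgeR without robust dispersion 3. The adjustment covered 3211 genes in DESeq2, 24487 without the filter and 13085 without robust dispersion. Of the 15 DESeq2 genes 13 had a negative interaction. Among the 20 genes with the smallest edgeR interaction p at 5 CPM or more were 12 of the 15. With 1 library left out at a time, edgeR called 3 genes without wild-type H2O2 replicate 15 (Tmsb10, Rpl5 and Gm10275), 1 without knockout H2O2 replicate 8 (Gm4540) and 0 without any of the 13 others.

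The absence of calls can be read against the precision of the estimates. Among the 10496 genes with at least 5 CPM in their highest group, the median SE of the interaction was 0.0863 on the log2 scale, and the 95% interval lay within a 1.5-fold difference either way for 9690 (92.3%) and within 2-fold for 10274 (97.9%). For 222 of these genes the interval reached past 2-fold. A gene of median SE would have needed an interaction of about 0.50 on the log2 scale, or 1.42-fold, to be called if it were the only gene called. Genes of smaller SE would have needed less and genes of larger SE more.

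**Figure D1:**
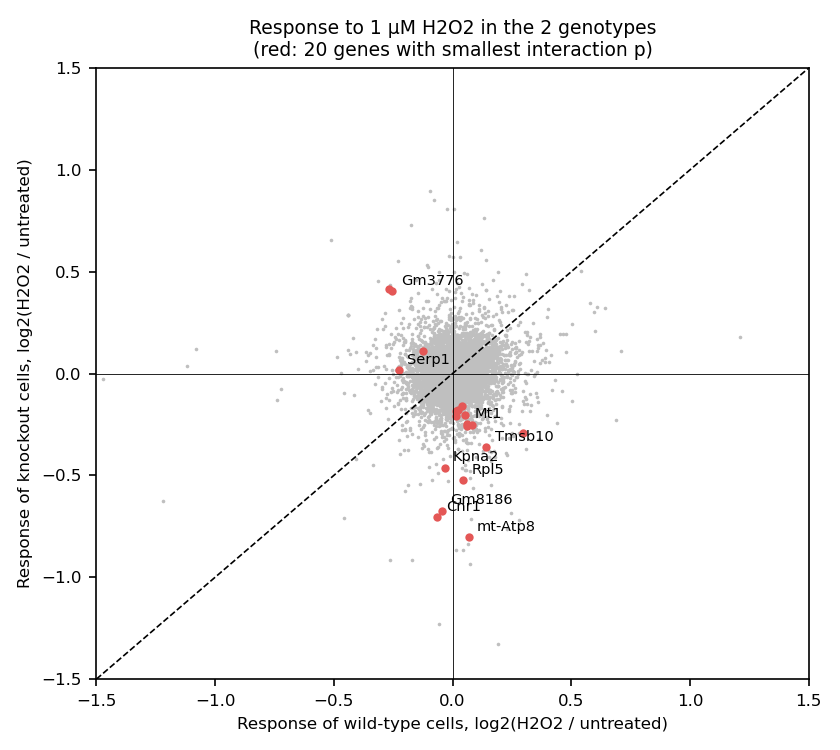
Response to H2O2 in wild-type cells (horizontal axis, log2) against the response in Clic4 knockout cells (vertical axis, log2) for the 10496 genes with at least 5 CPM in their highest group. Each point is 1 gene, the diagonal marks equal responses, and the 20 genes with the smallest interaction p are in red. Most points lie close to the origin and the red points lie away from the diagonal, 16 of the 20 below it. There are 26 genes outside the axis limits, 1 of them among the 20.

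Within each genotype H2O2 had few called genes. In wild-type cells 2 of 13085 genes passed (0.0153%): Wdr54 rose, and Selenos, a selenoprotein of ER-associated degradation, fell. In knockout cells 7 passed (0.0535%), and all of them fell: Rpl5, Kpna2, Mt1, Anp32b, Ptms, Basp1 and the pseudogene Gm8186. No gene was called in both genotypes. At an unadjusted p under 0.05 there were 847 genes in wild-type cells (6.47%), 424 higher with H2O2 (3.24%) and 423 lower (3.23%). In knockout cells there were 1041 (7.96%), 456 higher (3.48%) and 585 lower (4.47%), with 86 genes in both genotypes, of which 36 were higher in both, 29 lower in both and 21 opposite in direction. Neither response shares a library with the other, but the interaction is built from both. The standard deviation over genes was 0.155 for the wild-type response, 0.169 for the knockout response and 0.249 for the interaction, and Pearson's r between the responses across the 10496 genes was −0.17, a description across genes that are not independent replicates.

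Being called in 1 genotype and not in the other did not make a gene's interaction significant. Wdr54 stood at 14.1, 14.6, 15.0 and 16.9 CPM in untreated and at 18.4 to 21.7 CPM in treated wild-type libraries. In knockout libraries it stood at 15.9 to 17.2 CPM untreated and 17.4 to 17.8 CPM treated. Its treated libraries lay above its untreated ones in both genotypes, without overlap. Its response was 0.42 on the log2 scale in wild-type cells (adjusted p 0.0273) and 0.09 in knockout cells, and the interaction was −0.32 (SE 0.106, 95% interval −0.54 to −0.11, adjusted p 0.670). Selenos went from 71.1 to 83.1 CPM untreated to 61.2 to 67.9 CPM treated in wild-type cells (log2 −0.26, adjusted p 0.0273) and had a response of −0.09 in knockout cells, with an interaction of 0.17 (SE 0.0675, adjusted p 0.797). Neither wild-type call held without untreated replicate 9, where the responses were 0.38 for Wdr54 and −0.25 for Selenos, and 0 genes were called in that response. The same was so without any 1 of 6 other libraries. The 7 knockout calls became 0 without treated knockout replicate 8, with responses there of −0.50 for Rpl5, −0.25 for Mt1, −0.40 for Kpna2 and −0.61 for Gm8186, against −0.52, −0.25, −0.46 and −0.67 with all libraries.

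The gene with the smallest interaction p was Ptms, which encodes parathymosin, a small acidic nuclear protein (chr6:124913681-124920103, minus strand, mm10). It stood at 162, 155, 161 and 169 CPM in untreated and 166, 166, 169 and 183 CPM in treated wild-type libraries. The untreated knockout libraries had 191, 182, 188 and 198 CPM of Ptms and the treated ones 162, 169 and 147 CPM. The knockout groups did not overlap and the wild-type groups did. The responses were 0.08 in wild-type and −0.25 in knockout cells on the log2 scale (adjusted p 0.0243 in knockout), and the interaction was −0.33 (SE 0.0641, 95% interval −0.46 to −0.20, unadjusted p 1.85e-05, adjusted p 0.148). Its value without untreated wild-type replicate 9 was −0.33 as well.

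Anp32b, Ptma and Kpna2 were also among the 20 genes with the smallest p. Anp32b, an acidic histone chaperone, stood at 387, 360.4, 391 and 362 CPM in untreated and 373, 391, 368 and 385 CPM in treated wild-type libraries, against 553, 558, 524 and 549 CPM and then 474, 485 and 457 CPM in knockout libraries. Every treated knockout library was below every untreated one, but above all wild-type libraries. The interaction of Anp32b was −0.22 (SE 0.0534, interval −0.33 to −0.12, adjusted p 0.455), and its fall in knockout cells was called (log2 −0.21, adjusted p 0.0243). Ptma, which encodes prothymosin alpha, stood at 1117 to 1213 CPM in untreated and 1138 to 1237 CPM in treated wild-type libraries and at 1965 to 2071 CPM and then 1704 to 1842 CPM in knockout libraries, with an interaction of −0.20 (SE 0.0533, adjusted p 0.468). Kpna2, the importin alpha subunit that carries nuclear localisation signals into the nucleus, stood at 27.0, 29.3, 27.5 and 31.2 CPM in untreated and at 22.7 CPM or less in treated knockout libraries, and between 17.8 and 23.6 CPM in all wild-type libraries. The treated knockout libraries thus lay at the wild-type level. Kpna2 had a response of −0.46 in knockout (adjusted p 0.0241) and −0.03 in wild-type cells, and an interaction of −0.43 (SE 0.114, adjusted p 0.468).

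Mt1, a metallothionein that binds zinc and other metals (chr8:94179082-94180327, plus strand, mm10), stood at 142, 134, 136 and 142 CPM in untreated and 138, 140.1, 152 and 148 CPM in treated wild-type libraries. In knockout libraries it stood at 188, 196, 208 and 212 CPM untreated and 175, 165 and 169 CPM with H2O2. Knockout groups did not overlap, and all knockout libraries lay above all wild-type ones. The response in knockout cells was −0.25 (adjusted p 0.0241) and that in wild-type cells 0.06, and the interaction was −0.31 (SE 0.0617, interval −0.43 to −0.18, unadjusted p 3.18e-05, adjusted p 0.148). The neighbouring metallothionein gene Mt2 had an interaction of −0.20 (adjusted p 0.670), with 233 to 259 CPM in untreated and 215 to 228 CPM in treated knockout libraries. Among the 13 tested genes of metallothioneins and iron handling, 3 had a negative interaction at an unadjusted p under 0.05 (Mt1, Mt2 and the ferritin heavy chain Fth1) and 0 a positive one, and the median was −0.01.

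Rpl5, a large-subunit ribosomal protein that binds 5S ribosomal RNA (chr5:107900502-107909005, plus strand, mm10), stood at 192, 174, 182 and 162 CPM in untreated and 173, 180.1, 208 and 173 CPM in treated wild-type libraries, and at 253, 297, 249 and 278 CPM and then 186, 195 and 181 CPM in knockout libraries. As with Kpna2, the treated knockout libraries fell among the wild-type ones. The interaction was −0.57 (SE 0.101, interval −0.78 to −0.35, unadjusted p 4.76e-05, adjusted p 0.156), or −0.61 without untreated wild-type replicate 9. Its exons overlap Snord21, a small nucleolar RNA gene, on the same strand and Fam69a on the other. The ribosomal protein list was divided in direction: of 45 tested members, 5 had a negative and 4 a positive interaction at an unadjusted p under 0.05, and the median was 0.03. Both make up a larger share than over all genes (3.39% and 2.78%). With H2O2, 8 members were higher (3.48% of all genes) and 4 lower (4.47% of all genes) at that level in knockout cells. In wild-type cells 0 were higher and 0 lower (3.24% and 3.23% of all genes). The difference between these counts was not tested. Rpl12 had an interaction of −0.23 and Rpl34 one of 0.19.

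**Figure D2:**
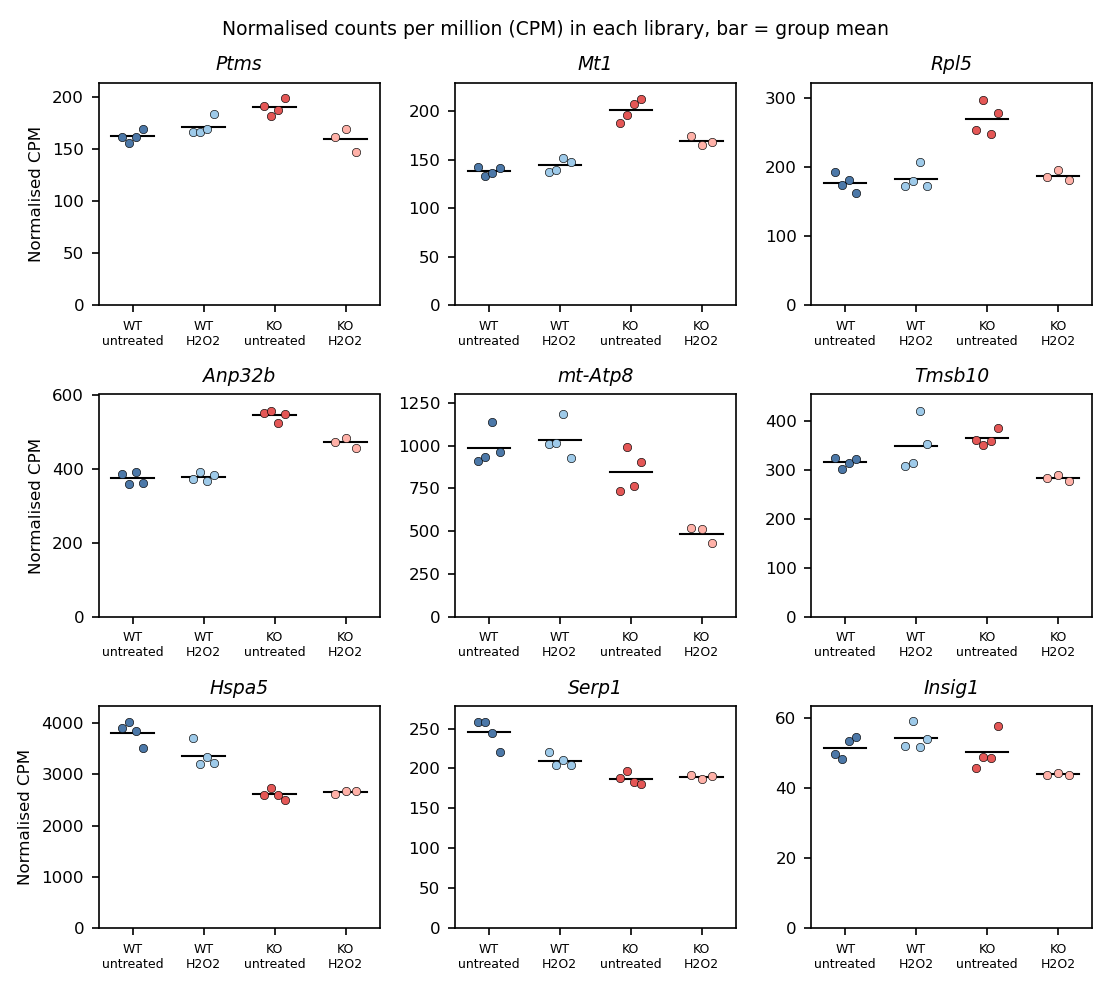
Normalised expression in CPM of 9 genes in each of the 15 libraries, by group (untreated and H2O2-treated, wild-type and Clic4 knockout). Each point is 1 library and each bar a group mean. Treated knockout libraries lie below all untreated knockout libraries for Ptms, Mt1, Rpl5, Anp32b, mt-Atp8, Tmsb10 and Insig1, and wild-type groups overlap for these genes. For Hspa5 and Serp1 it is the treated wild-type libraries that are mostly lower.

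Tmsb10, which sequesters actin monomers, stood at 361, 351, 359 and 387 CPM in untreated and 284, 289 and 277 CPM in treated knockout libraries, against 302 to 324 CPM in untreated and 308, 314, 421 and 353 CPM in treated wild-type libraries. The knockout groups did not overlap, and wild-type H2O2 replicate 15, at 421 CPM, was the highest of all libraries. The interaction was −0.50 (SE 0.115, interval −0.75 to −0.26, adjusted p 0.468). It passed the threshold in edgeR without replicate 15 (adjusted p 0.0157) and in DESeq2 with all libraries (adjusted p 0.0199). Pfn1, the actin-binding protein profilin, stood at 379 to 405 CPM in all wild-type libraries, at 384 to 403 CPM in untreated and at 326 to 366 CPM in treated knockout libraries, and its interaction was −0.20 (SE 0.0524, adjusted p 0.468). Basp1, a membrane-associated protein gene named after its values were seen because it was called in knockout cells (log2 −0.28, adjusted p 0.0243), had an interaction of −0.25 (SE 0.0717, adjusted p 0.657).

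Over the 20 genes as a group, 16 interactions were negative and 4 positive, with sizes from 0.20 to 2.88 on the log2 scale. In knockout cells 16 of the 20 had all treated libraries below all untreated ones, 2 had all above and 2 overlapped. The same non-overlap occurred in 4.18% of all tested genes for lower and 3.53% for higher levels. In wild-type cells 2 were all lower (1.96% of all genes), 1 all higher (1.85%) and 17 overlapped. The 20 were chosen by the interaction p, so these counts describe them and support nothing. With each library left out in turn, 16 of the 20 values were negative. Without untreated wild-type replicate 9 the interaction was −0.32 for Mt1, −0.24 for Anp32b, −0.51 for Kpna2, −0.52 for Tmsb10, 0.25 for Ccng1 and 0.22 for Serp1.

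The 4 positive interactions were those of Ccng1, Gm3776, Serp1 and the processed pseudogene Rpsa-ps10. Ccng1, which encodes cyclin G1 and is a p53 target, stood at 205, 217, 209.7 and 207 CPM in untreated and 199, 198, 185 and 185 CPM in treated wild-type libraries, and at 162, 169.9, 152 and 163 CPM and then 172, 181 and 170.3 CPM in knockout libraries. Its groups separated in both genotypes, in opposite directions, as did those of Gm10095 with the signs exchanged. The interaction was 0.24 (SE 0.0579, interval 0.12 to 0.36, adjusted p 0.455), from responses of −0.13 in wild-type and 0.11 in knockout cells. Gm3776 stood at 78.9 to 85.4 CPM in untreated and 65.6 to 74.0 CPM in treated wild-type libraries but at only 2.68 to 5.56 CPM in knockout libraries. Its response of 0.40 in knockout cells came from groups that overlapped, with 233 counts in untreated and 217 in treated libraries together. The interaction of Gm3776 was 0.66 (SE 0.153, adjusted p 0.455).

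Some of the larger estimates rest on low or uncertain counts. Gm10095, a processed pseudogene, had the largest estimate of the 20, −2.88 (SE 0.623, interval −4.24 to −1.51, adjusted p 0.468), from 1.63 to 5.20 CPM in untreated and 5.22 to 14.6 CPM in treated wild-type libraries and from 13.4 to 19.8 CPM and then 3.35 to 6.59 CPM in knockout libraries. Of the 20 genes, 16 are protein coding and 4 are annotated as pseudogenes (Gm8186, Gm10095, Rpsa-ps10 and Gm28438), whose counts can be split with near-identical copies. The exon of mt-Atp8 overlaps that of mt-Atp6 on the same strand, so reads there are uncertain between them. Parp3 and Serp1 overlap exons of Rrp9 and Eif2a on the other strand. The library kit marks strand, but whether the counting used it is not given in the sources used here. Cnr1, the cannabinoid receptor gene, stood at 18.9 to 23.7 CPM in all wild-type libraries, at 3.98 to 4.94 CPM in untreated and at 2.29 to 3.02 CPM in treated knockout libraries, and had an interaction of −0.64 (SE 0.169). Below the 5 CPM minimum used for naming, Gm43940 had an interaction of −1.33 (SE 0.273, adjusted p 0.148), from 1.53 to 2.40 CPM in treated and 2.91 to 4.59 CPM in untreated knockout libraries.

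**Figure D3:**
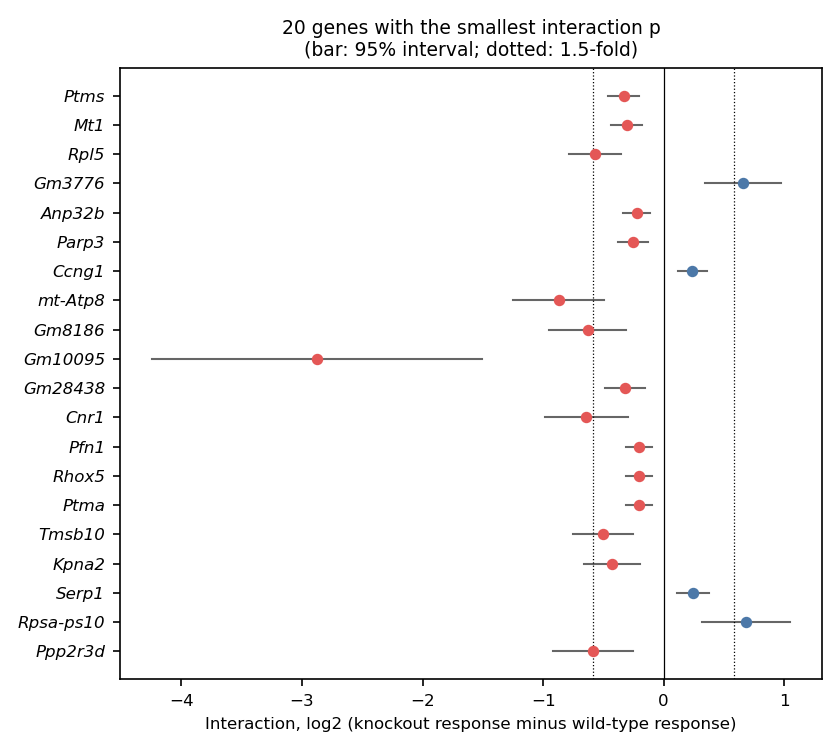
Interaction (log2 response to H2O2 in knockout minus that in wild-type cells) of the 20 genes with the smallest interaction p among those with at least 5 CPM in their highest group. Points are estimates, bars are 95% intervals for a single gene without adjustment for the number of genes, and dotted lines mark a 1.5-fold difference either way. There are 16 points left of 0 and 4 right of it, and Gm10095 has the widest interval, from −4.24 to −1.51.

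The 24 pathway lists held 561 genes, of which 531 were tested, and 0 of these had an interaction at an adjusted p under 0.05 (0 of all genes). The lists are described by their counts at an unadjusted p under 0.05 and by their medians, beside 3.39% negative, 2.78% positive and a median of −0.00 over all genes. No test was made of any list.

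The protein-coding genes of mitochondrial DNA encode subunits of respiratory complexes I, III and IV and of ATP synthase. All 13 were tested. Of these 11 had a negative interaction, 6 of them at an unadjusted p under 0.05, and 1 had a positive one at that level; the median was −0.35. The median response was 0.07 in wild-type and −0.29 in knockout cells. These genes were noisier than most: the median SE was 0.184 and 0 of the 13 intervals lay within 1.5-fold.

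Among them mt-Atp8, an ATP synthase subunit, was the member with the smallest p. It stood at 913, 934, 1139 and 966 CPM in untreated and 1013, 1015, 1188 and 927 CPM in treated wild-type libraries, and at 736, 993, 764 and 904 CPM and then 518, 512 and 429.9 CPM in knockout libraries. The treated knockout libraries were the lowest of all 15. The interaction was −0.87 (SE 0.171, interval −1.25 to −0.50, unadjusted p 0.000339, adjusted p 0.455), and −0.83 without untreated wild-type replicate 9. The response in knockout cells was −0.80 (adjusted p 0.0563). The reading frame of mt-Atp8 overlaps that of mt-Atp6, another ATP synthase subunit, whose interaction was 0.20 with an interval from −0.64 to 1.03.

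Complex I and III subunits had smaller negative estimates. The interaction was −0.55 for mt-Nd6 (SE 0.189, adjusted p 0.785), −0.44 for mt-Nd5, −0.42 for mt-Cytb, −0.37 for mt-Nd2 and −0.32 for mt-Nd1. For mt-Nd6, treated knockout libraries at 326, 296 and 267 CPM lay below untreated ones at 343 to 476 CPM, while wild-type libraries ranged from 526 to 749 CPM without separating by treatment. The cytochrome oxidase subunit mt-Co1 had an interaction of −0.31 with an interval from −0.72 to 0.11. The exception was the complex I subunit mt-Nd3, which stood at 93.2, 108, 99.2 and 101 CPM in untreated and 67.0, 81.9, 94.1 and 73.6 CPM in treated wild-type libraries, and at 75.2 to 90.4 CPM and then 84.4 to 99.6 CPM in knockout libraries. Its interaction was 0.45 (SE 0.143, interval 0.14 to 0.76, adjusted p 0.695). The pseudogene Gm28438 (chr1:24612775-24613119, minus strand, mm10), among the 20 genes above, had an interaction of −0.32 and group means from 291 to 385 CPM. Whether mitochondrial DNA genes and nuclear pseudogenes shared reads was not tested.

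The share of all counts taken by these genes was 2.34 to 3.25% in untreated and 2.73 to 2.98% in treated wild-type libraries, and 1.73 to 2.30% in untreated and 1.75% or less in treated knockout libraries. The part of overall RNA composition in the single-gene results was not tested. Without untreated wild-type replicate 9 the median interaction of the 13 genes was −0.29 and 3 were negative at an unadjusted p under 0.05. Over all libraries left out in turn that count ranged from 2, without knockout H2O2 replicate 8, to 9, without untreated wild-type replicate 11. Nuclear genes of complexes I to V had smaller median values. Of 36 complex I genes 17 had a negative and 19 a positive interaction, with a median of 0.01. At an unadjusted p under 0.05, 2 were negative (Ndufa12 at −0.29 and Ndufs6 at −0.25). Of 37 genes of complexes II to V 27 were negative and 10 positive, with a median of −0.05. At that level 4 were negative, Atp5g2 at −0.34 among them. With H2O2, 9 of the 37 and 4 of the 36 were lower at that level in knockout cells (4.47% of all genes). In wild-type cells 1 of each list was lower (3.23% of all genes).

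ER chaperones and their regulators had the opposite sign. These proteins fold and quality-control secretory proteins, and the unfolded protein response raises their genes when folding fails. Of 19 tested members 17 had a positive interaction and 4 a positive one at an unadjusted p under 0.05, against 0 negative, and the median was 0.06. All 19 intervals lay within 1.5-fold, so differences in response beyond that size lay outside the interval of each gene. With H2O2, 17 of the 19 were lower at an unadjusted p under 0.05 in wild-type cells (3.23% of all genes) and 3 in knockout cells (4.47% of all genes), with median responses of −0.13 and −0.05. These counts come from 4 against 4 and 4 against 3 libraries, and the difference between them was not tested. With 1 library left out the wild-type count ranged from 12 to 18 and the knockout count from 1 to 6. None was called after adjustment in either genotype.

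Hspa5, which encodes BiP, the main HSP70 chaperone of the ER, stood at 3895, 4005, 3833 and 3502 CPM in untreated and 3693, 3198, 3326 and 3216 CPM in treated wild-type libraries. In knockout libraries it stood at 2601, 2720.0, 2601 and 2498 CPM untreated and 2609.6, 2662 and 2664 CPM with H2O2. Wild-type groups overlapped through treated replicate 13 and untreated replicate 12, and all knockout libraries lay below all wild-type ones. The interaction was 0.20 (SE 0.0639, interval 0.07 to 0.33, adjusted p 0.670).

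Serp1, a stress-associated ER membrane protein gene, is not a member of this list and was named because it was among the 20 genes above. It stood at 259, 258, 244 and 220.1 CPM in untreated and 220.2, 204, 210.4 and 204 CPM in treated wild-type libraries, against 181 to 197 CPM in all knockout libraries. Its interaction was 0.24 (SE 0.0649, interval 0.11 to 0.38, adjusted p 0.468), from responses of −0.23 and 0.02. Dnajb9, a co-chaperone of BiP, had responses of −0.23 and −0.01 and an interaction of 0.22 (SE 0.0826, adjusted p 0.785). Herpud1, a component of ER-associated degradation, had an interaction of 0.28 (SE 0.128, unadjusted p 0.047), and Xbp1, a transcription factor of the unfolded protein response, one of 0.14. With 1 library left out Herpud1 ranged from 0.18, without untreated knockout replicate 4, to 0.34. For Hspa5, Serp1 and Dnajb9 every wild-type library, treated or not, lay above every knockout library.

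Several of these genes carry an ER stress response element (ERSE) before their start, the motif through which the factors ATF6 and XBP1 act. The motif was searched as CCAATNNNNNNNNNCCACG, on both strands, in the 250 bases before the start of each gene in RefSeq's promoters for GRCm38.p6. Promoters were found for 16 of the 19 members, and 7 of the 16 (43.8%) held a match, against 37 of 32851 promoters in all (0.113%). The list was written from general knowledge of the pathway that this motif serves. The larger share could thus follow from how the list was composed, and it supports nothing about the interaction. The 16 are genes with any start counted, while the 32851 are single promoters that include those of the list. Of the 4 members with an interaction at an unadjusted p under 0.05, Hspa5 held a match. Each is printed 5′ to 3′ on the gene's own strand with 10 bases on either side and the match in capitals; a match in the reverse orientation begins with CGTGG and ends with ATTGG.
Hspa5, chr2:34772015-34772053, plus strand: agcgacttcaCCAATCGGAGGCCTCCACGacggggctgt
Hsp90b1, chr10:86705628-86705666, minus strand: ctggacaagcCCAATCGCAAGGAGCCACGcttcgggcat
Hsp90b1, chr10:86705523-86705561, minus strand: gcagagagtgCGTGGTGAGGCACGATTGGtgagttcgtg
Calr, chr8:84847065-84847103, minus strand: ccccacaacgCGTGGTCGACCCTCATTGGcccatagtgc
Canx, chr11:50325790-50325828, minus strand: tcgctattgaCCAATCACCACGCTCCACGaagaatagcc
Creld2, chr15:88819510-88819548, plus strand: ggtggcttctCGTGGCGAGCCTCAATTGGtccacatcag
Dnajc3, chr14:118937817-118937855, plus strand: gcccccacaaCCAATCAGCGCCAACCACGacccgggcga
Pdia6, chr12:17266481-17266519, plus strand: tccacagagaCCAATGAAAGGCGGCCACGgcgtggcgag
A match is a description of the sequence and says nothing of binding in these cells.

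The 7 genes with a match did not share one size of interaction. Hspa5 had the value of 0.20 given above. Creld2, an ER stress-inducible secretory factor, had responses of −0.22 in wild-type and −0.13 in knockout cells and an interaction of 0.09. The lectin chaperones Calr and Canx had interactions of −0.03 and 0.03, Hsp90b1, the HSP90 of the ER, 0.03, Dnajc3, a BiP co-chaperone, 0.04 and Pdia6, a disulfide isomerase, 0.04. The sign for Calr turned without knockout H2O2 replicate 8 and that for Hsp90b1 without untreated knockout replicate 3.

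The wild-type count was 12 of 19 without untreated wild-type replicates 9 or 10 or treated wild-type replicates 14 or 16. Without replicate 9, 2 members rather than 4 had a positive interaction at that level, with a median of 0.05. Hspa5 kept an interaction of 0.19. Over all libraries left out in turn the count of positive interactions at an unadjusted p under 0.05 ranged from 2 to 6 and the number of members above 0 from 14 to 19.

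**Figure D4:**
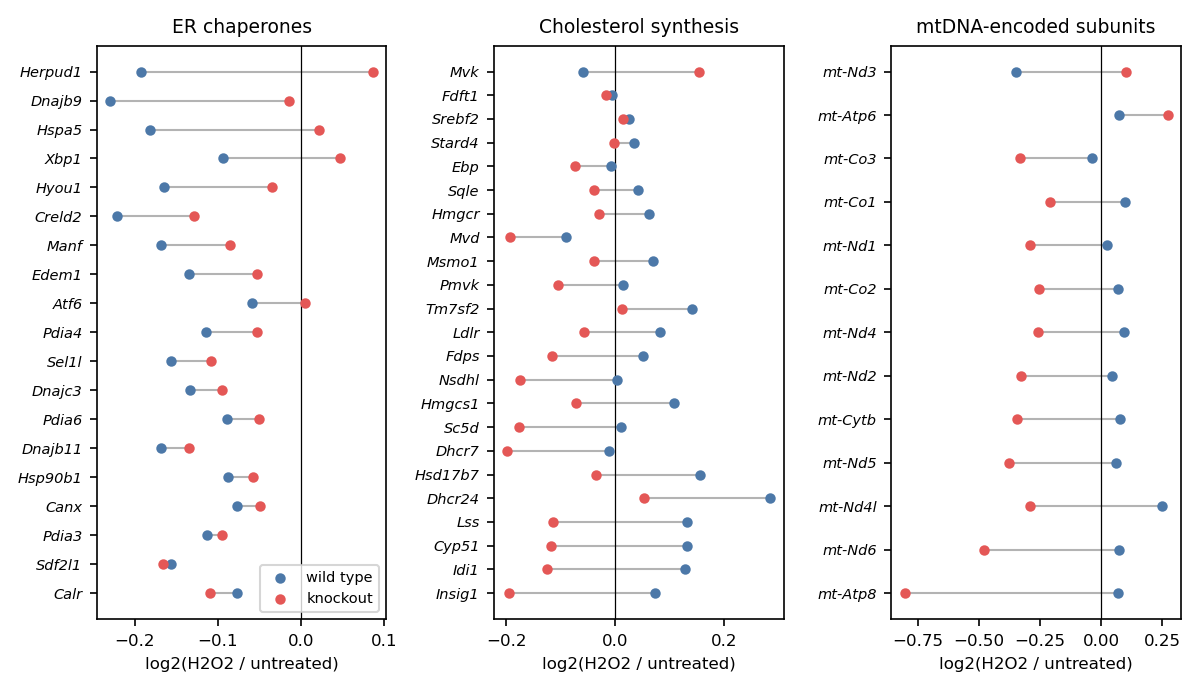
Response to H2O2 (log2, treated minus untreated) of each tested gene of 3 lists, in wild-type and in knockout cells: ER chaperones, cholesterol biosynthesis and genes of mitochondrial DNA. Lines join the responses of 1 gene. ER chaperones lie lower in wild-type (median −0.13) than in knockout cells (−0.05), cholesterol genes higher in wild-type (0.05) than in knockout cells (−0.07), and mitochondrial DNA genes higher in wild-type (0.07) than in knockout cells (−0.29).

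Cholesterol biosynthesis, a pathway switched on through SREBP2 when sterols run low, leaned to negative values. Of 23 tested members 22 had a negative and 1 a positive interaction, and the median was −0.14. At an unadjusted p under 0.05, 4 were negative and 0 positive. Insig1, which retains the SREBP complex in the ER, had the smallest p of the list. It stood at 49.8, 48.2, 53.3 and 54.6 CPM in untreated and 52.0, 59.0, 51.5 and 54.0 CPM in treated wild-type libraries, and at 45.7, 48.8, 48.6 and 57.6 CPM and then 43.7, 44.2 and 43.8 CPM in knockout libraries. Treated knockout libraries lay below all others, and untreated knockout replicate 4, at 57.6 CPM, lay above the other libraries of its genotype.

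The interaction of Insig1 was −0.27 (SE 0.0897, interval −0.45 to −0.08, adjusted p 0.670). Of the enzymes, lanosterol synthase Lss had −0.25, the reductase Hsd17b7 −0.19 and the desaturase Sc5d −0.19, while mevalonate kinase Mvk was the positive member at 0.21 (unadjusted p 0.095). Without untreated knockout replicate 4 the median of the list was −0.08. The number of members negative at an unadjusted p under 0.05 ranged from 1, without knockout H2O2 replicate 5, to 10, without untreated knockout replicate 1, and was 2 without untreated wild-type replicate 9.

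The integrated stress response, which slows translation and raises amino acid genes through ATF4, had 19 positive and 2 negative interactions among 21 tested members, with a median of 0.11. Asns, asparagine synthetase, was the member at an unadjusted p under 0.05. It stood at 310.0, 312, 307 and 287 CPM in untreated and 288, 267, 274 and 274 CPM in treated wild-type libraries and at 225 to 253 CPM and then 244 to 261 CPM in knockout libraries, so that groups overlapped in both genotypes. The interaction was 0.20 (SE 0.0585, interval 0.08 to 0.32, adjusted p 0.657). Without untreated knockout replicate 4 the median of the list was 0.06. In that library Atf4 stood at 326 CPM against 403 to 411 CPM in the other untreated knockout libraries.

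Of 21 tested p53 target genes 15 had a positive and 6 a negative interaction, with a median of 0.09, and 2 were positive at an unadjusted p under 0.05: Ccng1, given above, and Trp53inp1, an autophagy and stress regulator, at 0.28 (adjusted p 0.785). Cdkn1a, the cyclin-dependent kinase inhibitor p21, had an interaction of 0.13 and Mdm2, the ubiquitin ligase of p53, one of 0.09. With 1 library left out Cdkn1a ranged from 0.04, without untreated knockout replicate 4, to 0.17. Hypoxia-inducible genes had 15 positive and 1 negative value among 16, with a median of 0.10 and Ndrg1 at 0.15. With 1 library left out that median ranged from 0.05, without treated knockout replicate 5, to 0.14. Ndrg1 ranged from 0.09, without treated knockout replicate 8, to 0.20. The p53 list had a median of 0.04 without untreated knockout replicate 4. Without untreated wild-type replicate 9 the medians were 0.06 for hypoxia-inducible genes, 0.09 for p53 targets and 0.12 for the integrated stress response.

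**Figure D5:**
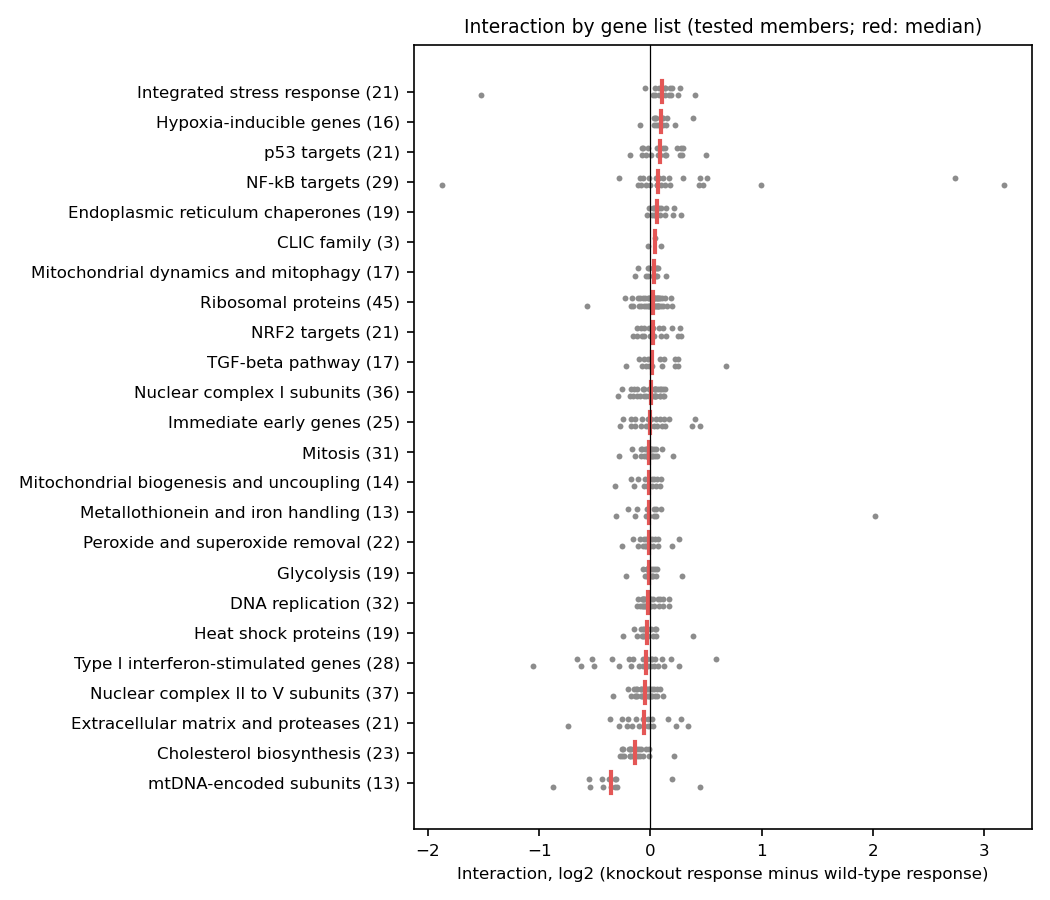
Interaction (log2) of every tested gene in the 24 pathway lists, with 1 point per gene and a red bar at each list's median. The line at 0 is close to the median of all 13085 tested genes (−0.00). The mitochondrial DNA list has the lowest median (−0.35), cholesterol biosynthesis stands at −0.14, and the integrated stress response at 0.11.

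The enzymes that act on peroxide directly had little difference in response. Of 22 tested genes of peroxide and superoxide removal, 15 had a negative and 7 a positive interaction, the median was −0.01, and 1, Srxn1, had an unadjusted p under 0.05. Srxn1, the sulfiredoxin that repairs overoxidised peroxiredoxins, stood at 84.1, 78.1, 81.3 and 76.0 CPM in untreated and 74.1, 73.0, 74.8 and 68.7 CPM in treated wild-type libraries, and at 56.9 to 63.9 CPM and then 62.9 to 64.3 CPM in knockout libraries. Treated wild-type libraries were all below untreated ones, and knockout libraries overlapped. Its interaction was 0.19 (SE 0.0664, interval 0.06 to 0.33, adjusted p 0.689). Prdx1, an abundant cytosolic peroxiredoxin, had an interaction of 0.05 with an interval from −0.07 to 0.16.

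NRF2 target genes divided evenly. Of 21 tested, 12 had a positive and 9 a negative interaction, from −0.16 to 0.28, with 2 positive and 2 negative at an unadjusted p under 0.05 and a median of 0.02. The interval lay within 1.5-fold for 19 of the 21. The median response to H2O2 was −0.04 in wild-type and −0.01 in knockout cells. In wild-type cells 1 member was higher and 4 lower at an unadjusted p under 0.05 (3.24% and 3.23% of all genes). In knockout cells 2 were higher and 4 lower (3.48% and 4.47% of all genes). Hmox1, heme oxygenase 1, stood at 118 to 129.8 CPM in untreated and 116 to 119.7 CPM in treated wild-type libraries and at 68.2 to 87.0 CPM and then 71.9 to 81.5 CPM in knockout libraries. Treated and untreated libraries overlapped in both genotypes, and its interaction was 0.09 (interval −0.08 to 0.27, adjusted p 0.935).

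Signalling and proliferation lists had medians from −0.04 (interferon-stimulated genes) to 0.07 (NF-kB targets, with 20 positive and 9 negative interactions). No member had an unadjusted p under 0.05 among 25 immediate early genes, 29 NF-kB targets, 17 TGF-beta pathway genes, 32 DNA replication genes, 17 genes of mitochondrial dynamics or 19 glycolytic genes. For NF-kB targets the interval lay within 1.5-fold for only 9 of the 29, so for most of them the interval did not exclude a larger difference. The member with the highest value, the adhesion receptor Icam1 at 3.18 (interval −2.23 to 8.58), rests on 10 counts in untreated and 1 count in treated wild-type libraries and had a value of 1.45 without untreated wild-type replicate 9. DNA replication genes had similar small responses in both genotypes, with medians of 0.09 in wild-type and 0.08 in knockout cells, and Mcm7, a helicase subunit, had an interaction of −0.09. Of 31 mitosis genes 1 was positive and 2 negative at that level, with the kinase Plk1 at −0.28. Of 28 interferon-stimulated genes 3 were negative, Oas1a, Oas3 and Mx2, with a list median of −0.04. Oas1a, a sensor of double-stranded RNA, stood at 39.0 to 43.9 CPM in untreated and 41.2 to 46.5 CPM in treated wild-type libraries and at 12.3 to 15.5 CPM and then 10.7 to 12.7 CPM in knockout libraries, and had an interaction of −0.35 (adjusted p 0.670).

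The 20 genes were on the whole short, with exceptions. The median length implied by the deposited RPKM and counts was 1421 bases for the 20 against 4257 bases for the 10409 of the 10496 genes with at least 5 CPM for which it could be computed, and Cnr1 (7197), Serp1 (4791) and Ccng1 (4378) lay above the latter. For genes of mitochondrial DNA the implied length exceeds the annotated one (409 bases for mt-Atp8, at chrM:7766-7969), and how lengths were set is not given in the sources used here. Over genes in classes of this length, the share at an unadjusted p under 0.05 was highest among the shortest. Of the 375 genes under 1 kb, 7.47% had a negative and 6.93% a positive interaction at that level. For the 1171 genes of 1 to 2 kb the shares were 4.53% and 4.01%, for the 3215 of 2 to 4 kb 2.89% and 2.89%, for the 4147 of 4 to 8 kb 2.99% and 2.44%, and for the 1501 over 8 kb 3.20% and 1.87%. Above 2 kb the negative share did not fall further with length. The part of length, library preparation or RNA quality in these shares was not tested.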

How the data were processed

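Strand-specific mRNA libraries from the 15 samples were sequenced as paired ends, per the labels' protocols. The submitters' processing notes name cutadapt, STAR, RSEM and the build mm10, without versions. The authors deposited expected counts per gene, as RSEM estimates them, already rounded to whole numbers, and RPKM values per gene. The counts were divided by the deposited RPKM for the 9805 genes with over 50 counts in every library. After scaling by 1 constant per library, this gave 1 length per gene in all libraries. The constants differed from the ratios of total counts by at most 0.0429%, so the RPKM values carry no other normalisation. All columns mapped to a labelled sample (0 without).

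The counts were fitted with edgeR 4.0.16 (R 4.3.3, limma 3.58.1): filterByExpr, TMM, 4 group means, robust quasi-likelihood test, Benjamini-Hochberg adjustment over 13085 genes, threshold 0.05. Fold changes are log2, with approximate 95% intervals. The pipeline was run on simulated counts whose spread followed expression level only, without aberrant libraries. Its condition on the calling of true differences covered only the largest simulated ones. Small differences, like most of those described here, were not covered by that condition. Libraries held 12.3 to 16.0 M counts, and the median SE of the interaction was 0.0863 (log2) for genes of at least 5 CPM. Groups came from sample titles.

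The contrast and gene lists were chosen with earlier results of these data known. Named by rule were the CLIC genes, genes called for the interaction (0), the 20 smallest interaction p-values among genes of at least 5 CPM in their highest group, the tested member of each list with the smallest interaction p, and the 5 smallest p in each genotype's response at that level. Other genes were named after their values were seen. Leukocyte markers of replicate 9 and the counts at an unadjusted p with each library left out were also examined after the data had been seen. Alternatives were DESeq2 1.42.0 and RLE scaling, no filter or a 5 CPM filter, non-robust dispersion, limma-voom with and without sample weights, limma on log2(RPKM + 0.1) and log2(RPKM + 1), and leaving out each library. Coordinates are from GENCODE M21 on mm10 and promoters from RefSeq on GRCm38.p6.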

Additional observations from a re-analysis of the deposited data

Results flagged for a closer look

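Each group of 4 libraries was checked for 1 library standing clear of the other 3 (Dixon's criterion at the 95% level), for the genes named and for library measures. This occurred in 21 of 258 such groups. Independent normal values would give about 1 in 20. These checks share the same libraries and many genes were named by their values, so no excess can be read from the count. The 3 treated knockout libraries are too few for the check.

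Among untreated knockout libraries, replicate 4 was below the other 3 for Icam1 (1.20 CPM), Skil (20.5 CPM), Xbp1 (131 CPM), Atf4 (326 CPM) and Cdkn1a (222 CPM), and above them for Pdia6 (1152 CPM). Replicate 1 was below the others for mt-Nd3 (75.2 CPM), and replicate 2 above them for Fth1 (1769 CPM).

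Among treated wild-type libraries, replicate 16 was above the others for Ptms (183 CPM) and below them for mt-Co1 (9749 CPM) and for the share of counts from mitochondrial DNA (2.73%). Replicate 15 was above the others for Gm10095 (14.6 CPM) and below them for Sc5d (58.9 CPM) and Oas3 (154.9 CPM). Replicate 13 was above the others for Icam1 (0.0629 CPM, against 0), and replicate 14 below them for Atf4 (353 CPM).

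Among untreated wild-type libraries, replicate 9 was above the others for the summed leukocyte and erythroid markers without Cd68 (164 CPM) and for Icam1 (0.540 CPM). Replicate 12 was below the others for Cnr1 (18.9 CPM) and Atf4 (356 CPM), and replicate 11 above them for Gm43940 (3.76 CPM).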

How the results depend on the processing

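No paired analysis was possible because the 4 groups share no replicate number in the labels. The count of 0 interaction calls became 3 without robust estimation, 5 without the filter and 15 with DESeq2, and 0 to 3 with 1 library left out; it was 0 with RLE, the 5 CPM filter, voom with or without weights and limma on RPKM. The 2 wild-type calls became 0 without robust estimation and in both RPKM fits, 12 without the filter, 14 with voom weights and 12 with DESeq2, and 0 to 13 with 1 library left out (13 without untreated wild-type replicate 12, 7 without treated wild-type replicate 13, 6 without untreated knockout replicate 4, and 0 without untreated wild-type replicates 9, 10 or 11, treated wild-type replicates 14, 15 or 16 or treated knockout replicate 5). The 7 knockout calls became 27 without the filter, 11 with voom, 13 with voom weights, 3 and 4 on log2(RPKM + 0.1) and log2(RPKM + 1) and 61 with DESeq2, and 0 to 21 with 1 library left out (0 without treated knockout replicate 8, 1 without untreated knockout replicate 4, 4 without treated knockout replicate 5, 18 without untreated knockout replicate 3 and 21 without treated wild-type replicate 15). Called list members went from 0 to 2 without robust estimation, 1 without the filter, 4 with DESeq2 and 0 to 1 with 1 library left out. The number of all tested genes with an interval within 1.5-fold, 9777, stayed within 1.5 times under each alternative. Unadjusted p under 0.05 was reached by 614 genes (without untreated wild-type replicate 10) to 988 (without untreated wild-type replicate 12). For single genes, 1954 values kept their direction and side of the threshold, 21 newly passed it and 14 changed sign. The sign changed for Clic5 on log2(RPKM + 0.1) (0.15) and log2(RPKM + 1) (0.040), and its interaction ranged from −0.43 to 0.34 with 1 library left out, positive without untreated knockout replicates 2 (0.12) or 3 (0.34), treated knockout replicates 5 (0.07) or 8 (0.04), untreated wild-type replicates 9 (0.20) or 10 (0.28) or treated wild-type replicate 14 (0.25). With 1 library left out the interaction ranged from −0.0075 (without untreated knockout replicate 4) to 0.075 for Clic4, which was also negative without treated knockout replicate 5 (−0.0037), from −0.019 (without untreated knockout replicate 4) to 0.41 for mt-Atp6, from −0.0041 (without untreated knockout replicate 3) to 0.070 for Hsp90b1 and from −0.070 to 0.0053 (without treated knockout replicate 8) for Calr. The CLIC family median moved to 0.10 on log2(RPKM + 0.1) and to 0.10 without untreated knockout replicate 3. The causes of these moves were not tested. Depth and the number of libraries, 3 in the treated knockout group, both limit which differences could be detected, and they were not compared.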
